A study of Mus musculus with 12 samples.

Results

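The protein kinase C (PKC) isozymes are serine/threonine kinases that carry signals from receptors which activate phospholipase C. The 7 isozyme genes Prkca, Prkcb, Prkcd, Prkce, Prkch, Prkci and Prkcz were taken by name from the 3 deposited tables of gene loci, in which 40508 gene names occur in all. The tissue was the prefrontal cortex of male C57BL/6 mice, 10 weeks old, that were injected with cocaine (20 mg/kg per day) or, as control, saline on each of 14 days. It was dissected 2 h, 24 h or 7 d from the last dose. Each of the 6 groups (cocaine and saline at each time) gave 2 libraries, and the tissue of 5 mice was pooled into each library, so that bulk RNA of whole tissue was measured. All values are FPKM, which scales the mapped fragments of a gene by its transcript length and by the size of the library, and the authors combined the 2 libraries of a group into 1 value. No spread between libraries was therefore computed and no test was made. The FPKM values give no depth per library. In bulk tissue, fewer cells of a type and less RNA per cell cannot be told apart.

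PKC isozymes fall into 3 subfamilies by what switches them on. The conventional isozymes, PKC-α and -β (from Prkca and Prkcb) among them, need calcium and the membrane lipid diacylglycerol. The nPKC isozymes (PKC-δ, -ε, -η and -θ, from Prkcd, Prkce, Prkch and Prkcq) need diacylglycerol but no calcium, and the atypical isozymes (PKC-ι/λ and -ζ, from Prkci and Prkcz) need neither and are held by protein partners. In cortical neurons PKC phosphorylates receptors, channels and proteins of the synaptic cytoskeleton, and it is known for its part in synaptic plasticity. Prkcq, which is not one of the 7 genes, was read from the same tables for comparison.

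The genes lie apart on the genome (GRCm38, positions as in the 2 h table, 1-based). Prkca spans chromosome 11, 107933296 to 108414396, and Prkcb chromosome 7, 122288637 to 122634752. Prkcd lies on chromosome 14 (30595356 to 30626210), Prkce on chromosome 17 (86157943 to 86658003) and Prkch on chromosome 12 (73584797 to 73778185). The atypical genes lie on chromosome 3 (Prkci, 30995747 to 31052794) and chromosome 4 (Prkcz, 155260118 to 155361361).

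The promoters of Prkcd, whose cocaine over saline ratio at 2 h was the largest of the members at that time, and of Prkcb, which is listed on more than 1 row, are shown so that their sequence can be set beside the values. Neither sequence was measured here. Each is the 250 bases before a transcription start of RefSeq (GRCm38.p6), 5′ to 3′ on the strand of the gene. Capitals mark the GC box (GGGCGG) and the E-box (CACGTG), searched on both strands, and in Prkcd the last base of the E-box is also the first base of a GC box.
Prkcd, chr14:30626209-30626458, minus strand: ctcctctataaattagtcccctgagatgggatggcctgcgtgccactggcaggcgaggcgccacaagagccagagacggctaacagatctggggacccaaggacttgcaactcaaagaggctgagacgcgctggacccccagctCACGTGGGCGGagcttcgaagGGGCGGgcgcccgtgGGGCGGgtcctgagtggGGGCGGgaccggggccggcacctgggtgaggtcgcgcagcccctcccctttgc
Prkcb, chr7:122288875-122289124, plus strand: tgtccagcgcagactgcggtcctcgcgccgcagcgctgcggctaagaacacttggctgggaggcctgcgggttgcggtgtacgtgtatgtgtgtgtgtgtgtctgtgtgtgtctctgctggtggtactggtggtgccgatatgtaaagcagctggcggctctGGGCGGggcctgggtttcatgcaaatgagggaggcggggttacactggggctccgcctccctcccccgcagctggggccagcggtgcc
RefSeq gives a further start for Prkcd, whose stretch (chr14:30610311-30610560) has no match to any motif searched, 1 CpG and 50.8% GC. The stretch shown lies at the more upstream of these starts, near the end of the locus as the tables give it. RefSeq ends Prkcd at 30626414, so most of this stretch lies inside the RefSeq gene. The Prkcb stretch also reaches slightly past the RefSeq start of its gene (122289104). The Prkcd stretch shown holds 4 GC boxes, 1 E-box and 18 CpG dinucleotides at a GC content of 67.6%, and the Prkcb stretch 1 GC box and 17 CpG at 65.2%. Of 32851 promoter stretches of the same length in the table, 32.7% hold a GC box and 6.02% an E-box, and the median GC content is 52.4%. The cAMP response element (TGACGTCA, in 1.55% of all stretches), the AP-1 motif (TGAGTCA, 4.46%) and the EGR motif (GCGTGGGCG, 0.536%) had no match in the stretches of the 5 members with an entry. These matches describe letters only.

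The level of the isozymes spanned about 2 orders of magnitude and kept the same order in all 6 groups. Prkcb was the highest in every group, with 115.6 FPKM with saline and 118.7 with cocaine at 2 h on its main row. Prkcz followed, at 92.8 to 102.6 FPKM over the 6 groups. Prkce (54.7 to 62.3 FPKM), Prkca (21.6 to 26.2 FPKM) and Prkci (11.5 to 12.4 FPKM) came next. Prkcd (2.07 to 2.99 FPKM), Prkcq (1.82 to 2.40 FPKM) and Prkch (1.05 to 1.44 FPKM) were the lowest, and their ranges over the groups overlapped from Prkcd to Prkcq but not from Prkcq to Prkch. All 7 members passed the minimum of 1 FPKM (mean of saline and cocaine) at each time. The tables were normalized separately for each time point, so the ranges over the 6 groups are a description, and cocaine was compared with saline only within a time.

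**Figure D1:**
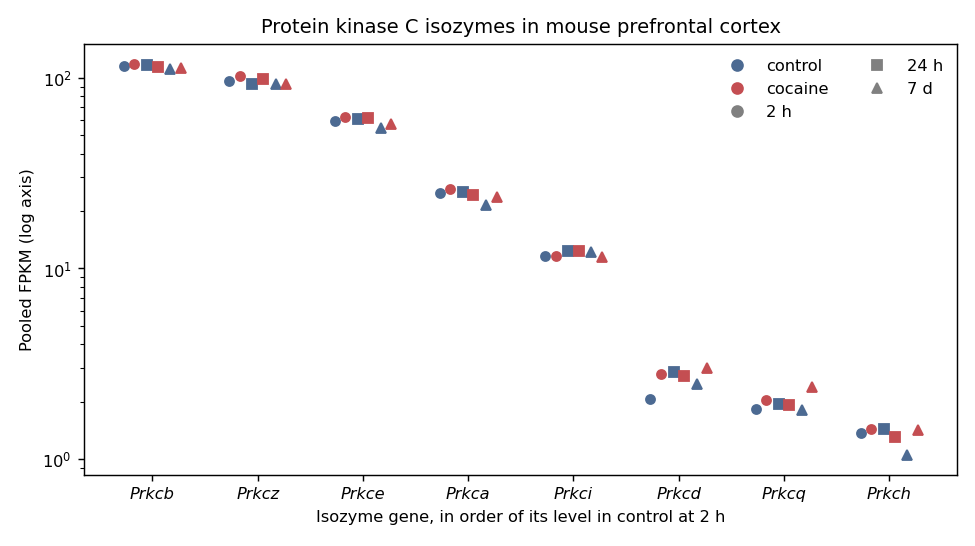
Pooled FPKM (log axis) of the 8 isozyme genes in the 6 groups, 1 point per group, with saline (control) in blue, cocaine in red and the time given by the marker. Prkcb lies highest and Prkch lowest in every group, and the points of each gene lie close together compared with the gaps between most genes.

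Summed over the main rows of these 8 genes, the conventional isozymes Prkca and Prkcb made up 44.9% of the FPKM with saline and 44.2% with cocaine at 2 h. The atypical isozymes made up 34.4% and 34.8%, and the nPKC isozymes 20.7% and 20.9%. At 24 h the atypical share was 33.6% with saline and 35.1% with cocaine, the largest gap of any subfamily and time. At 7 d the shares were 44.5% and 44.8% for the conventional, 35.3% and 34.3% for the atypical and 20.2% and 20.9% for the nPKC isozymes. On the main rows, the makeup of the 8 genes thus differed by less than 2 percentage points between cocaine and saline in every subfamily and at each of the 3 times. The second row of Prkcb, given below, is left out of these shares. It had 12.3 FPKM with saline and 22.9 with cocaine at 7 d, and the order of the gaps depends on leaving it out.

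For each locus the log2 ratio of cocaine over saline was taken from log2(FPKM + 0.1), and a locus counted as past the fold where cocaine was at least 1.2-fold higher or lower on that scale. At 2 h, 2 of the 8 member rows were past 1.2-fold higher and 0 lower, where 10.6% of 13466 named loci with at least 1 FPKM were higher and 7.26% lower. At 24 h 0 of 8 rows were past the fold, where 6.27% of 13929 loci were higher and 5.72% lower. At 7 d 2 of 8 rows were higher and 0 lower, where 8.3% of 13562 loci were higher and 11.9% lower. The median log2 ratio of the member rows was 0.07, -0.04 and 0.09 in the order of the times, beside medians over all loci of 0.02, 0.01 and -0.01. Of the rows past the fold, 1 at 2 h and 1 at 7 d was a second row of Prkcb. The others were genes under 3 FPKM, Prkcd at 2 h and Prkch at 7 d.

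**Figure D2:**
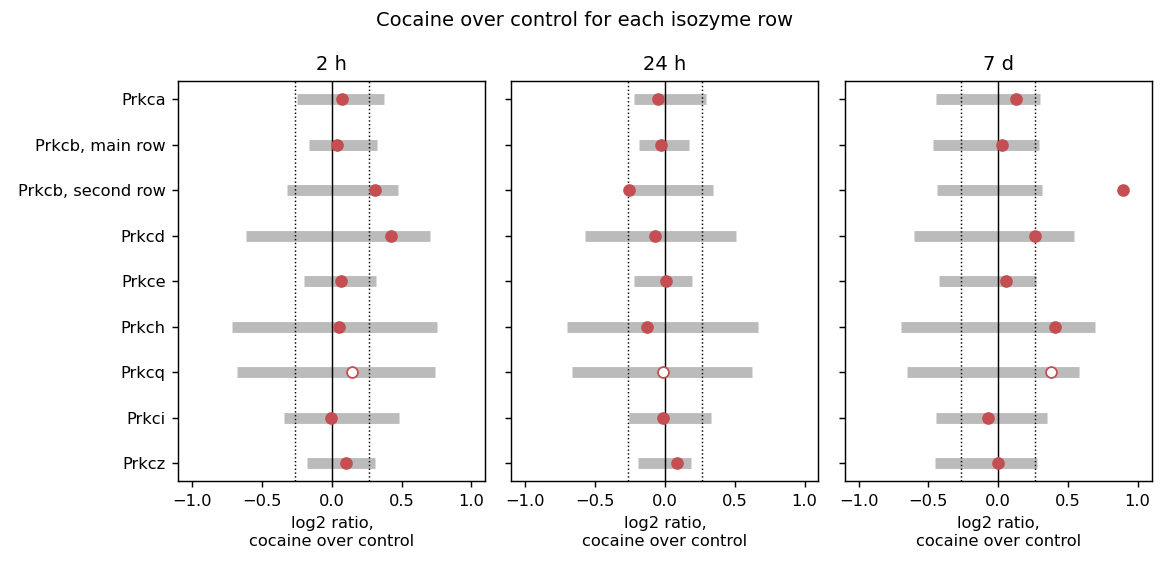
Log2 ratio of cocaine over saline for each isozyme row at 2 h, 24 h and 7 d, with members as filled circles and Prkcq as open circles. Grey bars hold the middle 95% of named loci whose FPKM lay within a factor of 2 of that row, and dotted lines mark 1.2-fold. The second row of Prkcb at 7 d, at 0.89, lies far outside its grey bar.

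Prkcb, the conventional isozyme with the highest level, is listed on 2 rows with the same coordinates at 2 h and 24 h, and on 3 at 7 d. The main row had 115.6 FPKM with saline and 118.7 with cocaine at 2 h, at 24 h 116.1 and 114.0, and at 7 d 110.7 and 112.6. Its log2 ratios were 0.04, -0.03 and 0.02, so that saline and cocaine were close at all 3 times. The second row had 11.5 FPKM with saline and 14.3 with cocaine at 2 h, at 24 h 12.1 and 10.1, and at 7 d 12.3 and 22.9. Here cocaine was above saline at 2 h and 7 d and below it at 24 h, with the widest gap at 7 d. The log2 ratios of the second row were 0.31, -0.26 and 0.89. A further row at 7 d is listed at 0 in both groups.

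At 7 d, 1.05% of all named loci, and 0.689% of the 4357 loci within a factor of 2 of its FPKM, had a ratio at least as high as that of the second Prkcb row. At 2 h, 5.7% of like loci were at least as high, and at 24 h, 2.56% were at least as low. The second row held 9.97% of the summed Prkcb FPKM in saline at 7 d and 16.9% in cocaine, against 9.06% and 10.7% at 2 h. Summed over its rows, Prkcb had 123.0 FPKM with saline and 135.5 with cocaine at 7 d, a log2 ratio of 0.14, which is not past 1.2-fold. Of this difference the second row gave 10.6 FPKM and the main row 1.93 FPKM. The main row thus carried most of the FPKM listed under the name Prkcb, and the second row most of the difference at 7 d. These shares and sums count the second row as Prkcb, and whether it holds Prkcb reads was not tested.

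**Figure D3:**
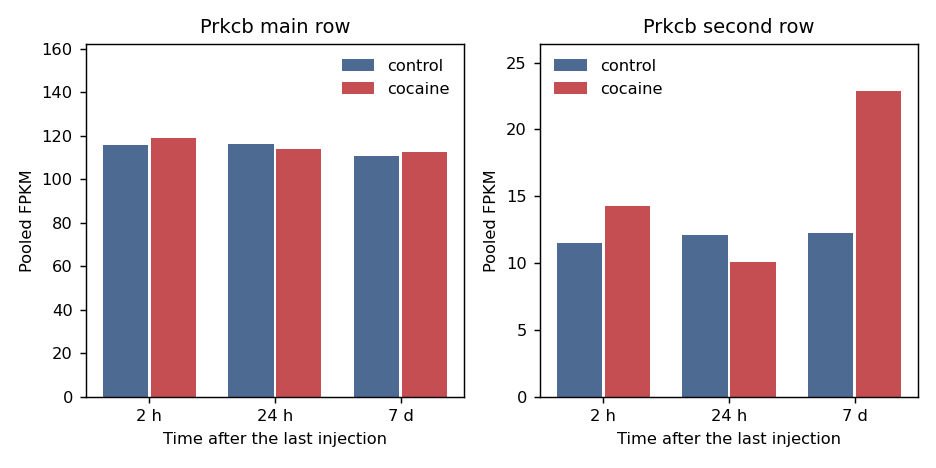
Pooled FPKM of the main row (left) and the second row (right) of Prkcb in saline (control, blue) and cocaine (red) at the 3 times, on separate axes that start at 0. The bars of the main row stay between 110.7 and 118.7, while those of the second row reach 22.9 in cocaine at 7 d from 12.3 in saline.

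The rows of Prkcb stand at different places in the tables. Around the main row of Prkcb, the 20 nearest named rows with a single RefSeq strand (10 on each side) were 20 plus-strand genes at each time, and Prkcb itself is a plus-strand gene. Around the second row they were 20 minus-strand genes at each time, and likewise around the row listed at 0 at 7 d. RefSeq places the minus-strand long noncoding RNA Gm51497 inside Prkcb (chromosome 7, 122290636 to 122296349, near the start of Prkcb). The pseudogene Gm14388 (122442005 to 122443412) lies there too, and its strand was not read. Both were looked up by name, and whether other genes lie inside Prkcb is not given here. The library kit named in the methods does not mark the strand of a read, so reads of Prkcb and of a transcript on the opposite strand cannot be told apart except at splice sites, and which transcript the second row holds was not tested. At 7 d Prkcb was 1 of 117 gene names that stood on several rows with shared coordinates and at least 1 FPKM. Its gap between rows, 0.87 on the log2 scale, ranked 14 among them, beside a median gap of 0.26, whereas at 2 h its gap of 0.27 was near the median of 0.26 over 90 names.

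Prkca, which is activated by calcium and diacylglycerol and binds the scaffold PICK1, had 24.9 FPKM with saline and 26.2 with cocaine at 2 h, at 24 h 25.1 and 24.2, and at 7 d 21.6 and 23.7. Its log2 ratios were 0.07, -0.05 and 0.13, all within 1.2-fold. The ratio at 7 d was the largest among the main rows above 20 FPKM. Transcripts of Prkca are long (8409 nt for the longest coding transcript of GENCODE M1), and loci in its length group had a median ratio of 0.14 at 7 d and 0.08 at 2 h. Less that trend, the Prkca ratio was -0.01 at both times.

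Among the nPKC isozymes, Prkce stayed close to its saline level and the low genes Prkcd and Prkch gave the larger ratios. Prkce, an isozyme abundant in brain that acts at presynaptic sites, had 59.5 FPKM with saline and 62.3 with cocaine at 2 h, at 24 h 60.9 and 61.3, and at 7 d 54.7 and 57.0. Its ratios of 0.07, 0.01 and 0.06 were within the middle 95% of loci of like FPKM at each time.

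Prkcd, whose product is known for its part in cell death and stress signaling, had 2.07 FPKM with saline and 2.81 with cocaine at 2 h. It had 2.87 and 2.73 FPKM at 24 h, and 2.48 and 2.99 at 7 d. Cocaine was above saline at 2 h and 7 d and slightly below it at 24 h. The saline values of Prkcd alone ranged 1.39-fold over the 3 separately normalized times, with the lowest at 2 h. The log2 ratio at 2 h was 0.42, past 1.2-fold, and 7.21% of the 4163 loci of like FPKM were at least as high. At that time 16.6% of the loci with 1 to 5 FPKM were past 1.2-fold higher, 10.4% at 24 h and 14.8% at 7 d. At 7 d the Prkcd ratio was 0.26, just inside the threshold, and at 24 h it was -0.07.

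Prkch, the isozyme PKC-η best known from epithelia and immune cells, had 1.38 FPKM with saline and 1.43 with cocaine at 2 h, at 24 h 1.44 and 1.31, and at 7 d 1.05 and 1.43. Its log2 ratio at 7 d was 0.41, past 1.2-fold, and 7.91% of the loci of like FPKM were at least as high. With a pseudocount of 1 in place of 0.1 it was 0.24, which is not past 1.2-fold. The saline values of Prkch alone ranged 1.37-fold over the 3 separately normalized times, with the lowest at 7 d. Prkcq, the isozyme of T cell signaling, was also past 1.2-fold higher at 7 d, with 1.82 FPKM with saline and 2.40 with cocaine (log2 ratio 0.38), whereas its ratios at 2 h and 24 h were 0.14 and -0.02. All 3 ratios past the fold in low isozymes lay inside the middle 95% of loci of like FPKM.

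The atypical isozymes stayed within 1.2-fold at all 3 times. Prkcz, the gene of PKC-ζ and of its brain form PKMζ, which lacks the regulatory part, had 95.9 FPKM with saline and 102.6 with cocaine at 2 h, at 24 h 93.2 and 98.8, and at 7 d 92.8 and 92.9. Its log2 ratios were 0.10, 0.08 and 0.00. The gene-level FPKM does not separate PKMζ from the full-length kinase. Prkci, whose product sets cell polarity, had 11.59 FPKM with saline and 11.57 with cocaine at 2 h, at 24 h 12.4 and 12.3, and at 7 d 12.2 and 11.5. It was the only member whose main row was lower in cocaine at all 3 times, by log2 ratios of -0.02 at 24 h and -0.07 at 7 d and by a smaller amount at 2 h.

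The genes around PKC, in 10 lists of the pathway, were mostly within 1.2-fold. At 2 h 8 of the 78 genes with at least 1 FPKM were past 1.2-fold higher and 5 lower. At 24 h 2 of 77 were higher and 2 lower, and at 7 d 8 of 76 were higher and 1 lower. The shares past the fold were 10.3% higher and 6.41% lower at 2 h, 2.6% in each direction at 24 h, and 10.5% higher and 1.32% lower at 7 d. Those higher at 2 h and 7 d lay near the background given above, and those at 24 h and the share lower at 7 d lay under it.

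**Figure D4:**
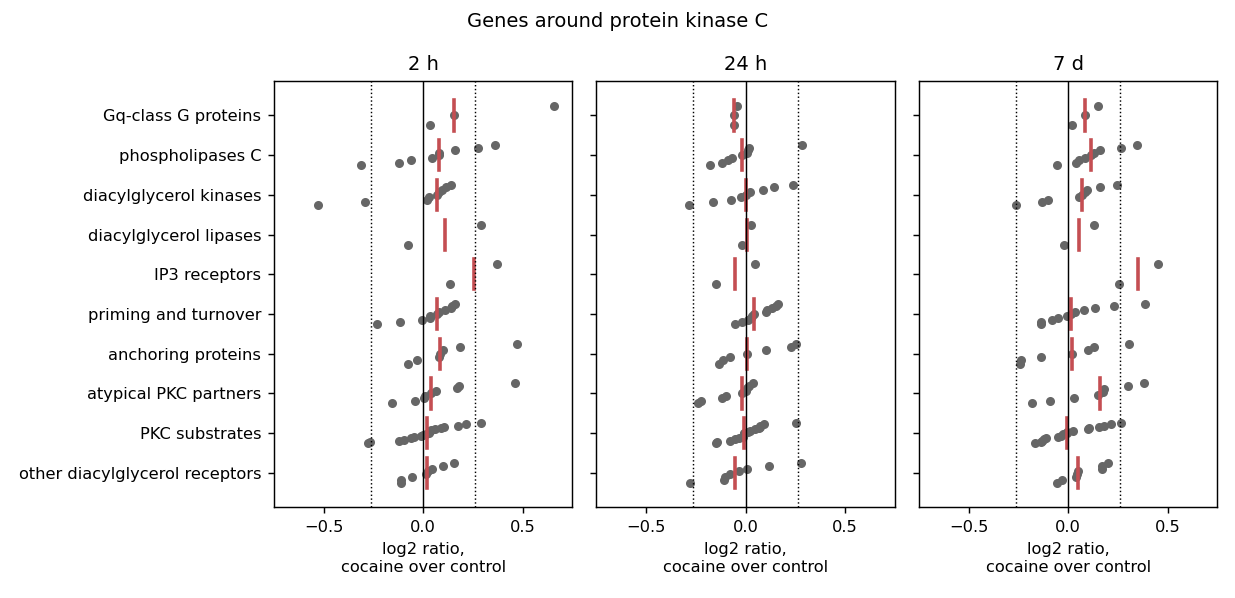
Log2 ratio of cocaine over saline for the genes of 10 lists around PKC at 2 h, 24 h and 7 d, 1 point per gene with at least 1 FPKM. Red bars mark the median of each list and dotted lines 1.2-fold. Most points lie between the dotted lines, and 2 of 77 genes lie beyond them on each side at 24 h.

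Upstream of PKC, the phospholipases C, which release diacylglycerol, had 9 genes with at least 1 FPKM. At 2 h Plcd4 (3.55 to 4.58 FPKM, log2 ratio 0.36) and Plch2 (10.6 to 12.9 FPKM, 0.28) were higher in cocaine and Plcg1 was lower (14.4 to 11.6 FPKM, -0.31). At 24 h Plch2 was again higher (0.28), and at 7 d Plcd3 (0.34) and Plcb3 (0.26) were. Of the Gq-class G proteins, which switch on phospholipase C-β, 1 of 3 was past the fold at 2 h, Gna15, at 1.08 and 1.75 FPKM (log2 ratio 0.66), and 0 of 3 at the later times.

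The diacylglycerol kinases end the signal by turning diacylglycerol into phosphatidic acid. Of 9 such genes none was higher past the fold at any time. Dgka was lower in cocaine at all 3 times, with 2.80 FPKM with saline and 1.91 with cocaine at 2 h, at 24 h 2.61 and 2.13, and at 7 d 3.03 and 2.51. Its log2 ratios were -0.53, -0.28 and -0.26, the last only just past the fold (-0.2638 against a threshold of 0.2630 in size). In 0.312% of 12480 genes with at least 1 FPKM at each time the ratio was past 1.2-fold lower at all 3. That share covers genes of all levels. Of loci with 1 to 5 FPKM, where Dgka lies, 14.4% were past the fold lower at 2 h. At 24 h 11.4% were, and at 7 d 13.3%. Dgkq was lower at 2 h (5.17 to 4.21 FPKM, -0.29). Dagla, the diacylglycerol lipase that makes the endocannabinoid 2-arachidonoylglycerol, was higher at 2 h (16.9 to 20.7 FPKM, 0.29).

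Itpr2, a receptor for inositol trisphosphate, the other product of phospholipase C, was higher in cocaine at 2 h (2.00 to 2.61 FPKM, log2 ratio 0.37) and at 7 d (1.25 to 1.74 FPKM, 0.45). Pard3, the polarity scaffold that binds atypical PKC, was likewise higher at 2 h (2.07 to 2.89 FPKM, 0.46) and 7 d (2.03 to 2.67 FPKM, 0.38). Its ratio at 24 h was -0.24. Of all 12480 genes, 2.25% were past 1.2-fold higher at both 2 h and 7 d. This share, too, covers genes of all levels. Of loci with 1 to 5 FPKM, where Itpr2 and Pard3 lie, 16.6% were past the fold higher at 2 h and 14.8% at 7 d. Pard6g, a further polarity partner, was higher at 7 d (1.64 to 2.04 FPKM, 0.30).

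Of the genes that prime PKC or turn it over, Mtor, the kinase of the complexes mTORC1 and mTORC2, was higher at 7 d (8.27 to 10.8 FPKM, log2 ratio 0.39), the only one of 11 past the fold at any time. Of 7 anchoring proteins, Sdpr, a caveolar protein that binds PKC, was higher at 2 h (0.47) and Akap12 at 7 d (0.31). Of 18 PKC substrates with at least 1 FPKM at 2 h, 1 was past the fold higher, the kinase Prkd3 (0.29), and 2 lower, the phosphatase inhibitors Ppp1r14c (-0.28) and Ppp1r14a (-0.27). At 7 d Add2, a membrane cytoskeleton protein, was the only substrate past the fold (22.3 to 26.9 FPKM, 0.27). Among other diacylglycerol receptors at 24 h, Unc13b was higher (0.28) and Unc13c lower (-0.28).

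The tissue carried the markers of cortex, with 466 to 532 FPKM of Slc17a7, the vesicular glutamate transporter of cortical excitatory neurons, and 69.3 to 78.1 FPKM of Gad1, which makes GABA. All 7 excitatory and all 6 interneuron markers had at least 1 FPKM at each time, whereas 1 of 6 olfactory bulb markers did. At 7 d 1 excitatory marker was past the fold higher (Cux2, 0.30) and 2 lower (Neurod6, -0.41, and Fezf2, -0.39). Of 8 striatum markers, 6 had at least 1 FPKM at each time, among them Penk (60.2 to 68.5 FPKM) and Ppp1r1b (46.4 to 57.7 FPKM). Past the fold were 1 higher and 1 lower at 2 h and 0 at 24 h. At 7 d Adora2a (0.68) was higher and Tac1 (-0.62) and Rgs9 (-0.37) were lower. No marker was listed at 0 in both groups of a time. Of the blood markers (hemoglobin genes and Alas2), 5 of 5 were past 1.2-fold higher in cocaine at 2 h, with summed levels of 323 FPKM with saline and 504 with cocaine. At 24 h these sums were 458 and 504 FPKM. They were 452 and 529 at 7 d, where 2 of 5 were past the fold. The endothelial markers had 63.8 and 70.9 FPKM at 2 h (1 of 5 higher), 84.1 and 80.3 at 24 h (0 of 5 past the fold) and 70.2 and 78.1 at 7 d (1 of 5 higher). The astrocyte markers had 287 and 322 FPKM at 2 h (1 of 5 higher), 327 and 294 at 24 h (2 of 5 lower) and 280 and 313 at 7 d (2 of 5 higher). The thalamus markers, listed because Prkcd is abundant there, summed to 16.7 FPKM with saline and 17.9 with cocaine at 2 h, where 1 of 6 was past the fold in each direction. Calb2 was the higher one (6.80 to 8.32 FPKM, log2 ratio 0.29) and Tcf7l2 the lower (1.42 to 1.01 FPKM, -0.46). The median log2 ratio of these 6 was -0.04, so the sum and the median differed in direction. The oligodendrocyte markers summed to 669.6 FPKM with saline and 630.2 with cocaine at 2 h, at 24 h to 803 and 669 (1 of 6 past the fold lower, Mbp), and at 7 d to 782 and 776. The microglia markers summed to 125 and 129 FPKM at 2 h, at 24 h to 129.6 and 117, and at 7 d to 127.2 and 127.7, with 0 of 5 past the fold at each. The 6 choroid plexus markers summed to 4.24 and 3.30 FPKM at 2 h, at 24 h to 4.98 and 4.42, and at 7 d to 3.45 and 9.59. Only Ttr and Kcnj13 of these reached 1 FPKM and they did not move together. Ttr had log2 ratios of -1.83 at 2 h and 4.11 at 7 d, and Kcnj13 0.30 and 0.08. The part of these cells in the Prkcd and Prkch values was not tested.

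For the 3 member rows past the fold, the genes with the nearest log2 ratios at the 3 times were found among 12480 genes, by Euclidean distance over the 3 values. The second Prkcb row lay nearest to Shank1 (0.31, -0.15 and 0.79, distance 0.15), followed by Egfem1 and Sp140 (distances 0.27 and 0.28). Prkcd lay nearest to Nagpa, Sowaha and Rps6ka2, at distances of 0.04, 0.04 and 0.05. Prkch lay nearest to Mllt6, Gm11249 and Laptm5, at 0.03, 0.04 and 0.04. These distances describe 3 values each and carry no test.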

How the data were processed

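RNA of 12 libraries in 6 groups was sequenced by the authors. The labels name Trimmomatic 0.32, TopHat2 2.0.12 and Cufflinks 2.2.1 with Cuffdiff, on GRCm38. The methods name cutadapt, Cufflinks 2.0 and mm9; uniquely mapped reads were kept. The authors deposited, per time point, 1 FPKM per locus and group over 2 libraries, normalized within that time point. Their fold changes, test statistics, p-values and q-values, from their own comparison, were not used.

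The deposited FPKM columns are named by time point. They were taken as saline, then cocaine, as the rule for the members states; in the study's supplementary lists 445 of 447, 13 of 13 and 509 of 509 genes have the same order. Locus positions lay on the RefSeq genes of GRCm38.p6, but not all limits matched. At 2 h the Prkca locus ran to 108414396, past the RefSeq end at 108343888. The Prkce locus started at 86157943, before the RefSeq start at 86167785. Log2 ratios used log2(FPKM + 0.1) on named loci with a mean FPKM of at least 1 in Python 3.11.15 with pandas 2.3.3, and the steps were tested on simulated data. With 1 pooled value per group no test, error or left-out library was possible. For lists, the longest locus of a name was used, with ties going to the higher FPKM. Members and lists were chosen with earlier results of these data known. Named were all members, Prkcq, up to 2 genes per list, direction and time past 1.2-fold, and the 3 nearest genes. Dgka over 3 times and the bands of FPKM were singled out after their values were seen. Alternatives covered pseudocount, filter, fold, centring, length and rows. Some items are not reported here.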

Additional observations from a re-analysis of the deposited data

How the results depend on the processing

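Of 204 values of single member rows under the alternatives, 196 stayed on their side of 1.2-fold, 8 crossed it and 0 changed sign while past it. Among the 196 are values that could not move, because the setting leaves a single ratio as it was. These are 24 with no filter, 18 with at least 5 FPKM and 21 with 1 row per member. With the Prkcb rows summed, only the Prkcb values differ from the main ones. With no spread between libraries, a value counted as moved when it crossed the fold. The count of member rows past 1.2-fold at 2 h was 2; it was 1 with at least 5 FPKM, 1 with 1 row per member, 1 with the Prkcb rows summed, and 0 at 1.5-fold. At 24 h it was 0, and 1 (the second Prkcb row) less the median of all loci, less the trend over locus span, less the trend over transcript length, or at 1.1-fold. At 7 d it was 2, and 1 with a pseudocount of 1, at least 5 FPKM, 1 row per member, the Prkcb rows summed, or 1.5-fold. Prkch at 7 d was 0.24 with a pseudocount of 1. Prkcd at 7 d was past the fold with no pseudocount (0.27) and less the median (0.27), the span trend (0.27) or the length trend (0.26, just past). The trend over transcript length and the summed rows were chosen after seeing the data. The count at 7 d was 3 in the settings that brought Prkcd past the fold. The median over member rows ran from 0.02 to 0.07 at 2 h, -0.07 to -0.02 at 24 h and 0.01 to 0.13 at 7 d, lowest at each time less the trend over transcript length. No paired analysis was possible because each value pools the 2 libraries of a group, and leaving out a library was not run for the same reason. The FPKM values carry no depth per library, so no counting error can be given for any gene.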
